A study of Solanum lycopersicum with 2 samples.

Results

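The 5 loci described here encode proteins that loosen or cut the hemicellulose and cellulose of tomato fruit cell walls. They were chosen by locus identifier, with earlier results of these data known. All 5 were found among the 34725 identifiers in the table. Solyc06g051800 was entered as the expansin EXP1, Solyc08g081620 as the endoglucanase CEL1 and Solyc09g010210 as the endoglucanase CEL2. Solyc01g008710 was entered as the endo-beta-mannanase MAN4, and Solyc01g081060 as XTH5, a xyloglucan endotransglucosylase/hydrolase. The files give identifiers without names. The RefSeq gene table of assembly SLM_r2.1 has a gene of each of these 5 names, on chromosomes 6, 8, 9, 1 and 1, the chromosomes written in the identifiers, but it holds no identifier of this kind. Names and roles therefore rest on the assignments by which the loci were entered, which could not be checked here.

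Fruit softening at ripening comes from the loosening and partial breakdown of the walls between and around the cells of the pericarp. Expansins loosen walls without cutting chains, by disturbing the bonds between cellulose and the glycans that coat it. Endoglucanases cut beta-linked glucan chains, endo-beta-mannanases cut mannans, and xyloglucan endotransglucosylase/hydrolases cut xyloglucan and can join the cut end to another chain. EXP1 is known as the main expansin of ripening tomato fruit, where less of it gives firmer fruit.

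Illumina sequencing of total RNA from red ripe fruit gave 1 wild type library and 1 library of a line that overexpresses ALMT9, a gene of the aluminium-activated malate transporter family. Fruit of both genotypes was picked at 49 days after flowering from 3 plants each, from plants grown under commercial practice. The labels do not say which promoter drives ALMT9, how many independent lines the library stands for or whether fruit was pooled. With 1 library a genotype there is no replicate error and no test, so every difference below is one between these libraries. Intervals are exact 95% intervals unless stated otherwise and cover counting error only. They take reads as independent, so copies made by PCR would make them too narrow.

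The RPKM values gave back library totals of 19736832 reads (wild type) and 19252026 reads (overexpression). The locus entered for ALMT9, Solyc06g072910.2, stood at 0.0742 RPKM (reads scaled by gene model length and library size) in wild-type fruit and at 20.5 RPKM in overexpression fruit, which matches the labels. Of 6 loci entered as markers of ripe fruit, all were abundant in both libraries, the lowest value being 524 RPKM. They were not equal between the libraries, since 3 were higher and 3 lower in the overexpression library. Of the 17287 genes with a mean of at least 1 RPKM, 51.2% were higher and 48.8% lower. Solyc07g049530.2 stood at 648 RPKM (wild type) and 2363 RPKM (overexpression), a ratio of 3.65, and Solyc09g089580.2 at 3979 and 2011 RPKM, a ratio of 0.505. The part of these differences in the results below was not tested. Of 10 entered for green tissue, 3 were at 0 in both and none was above 2.35 RPKM. All 10 loci entered for seed storage globulins and oleosins were lower in the overexpression library, 8 of them by at least 2-fold. Of the 17287 genes, 48.8% were lower and 4.30% were lower by at least 2-fold. The summed level of the 10 seed loci was 280 RPKM in wild-type fruit and 49.3 RPKM in overexpression fruit. The part of this difference in seed transcripts in the results below was not tested. In bulk tissue, fewer cells of a type and less RNA per cell cannot be told apart.

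Of the 5 loci, EXP1 and CEL2 were somewhat higher in the overexpression library, while CEL1, XTH5 and MAN4 were lower. Differences are given as log2((overexpression + 1)/(wild type + 1)) of the RPKM values, called the log2 ratio, and a locus is called apart where it differed by at least 2-fold on this scale. CEL1 and XTH5 were called lower, 2 of the 5, and none was called higher. Among the 17287 genes with a mean of at least 1 RPKM, 4.30% were called lower and 8.09% higher. Because the 5 loci were chosen with earlier results known, these shares describe all genes and test nothing about the choice. The median log2 ratio of the 5 loci was -0.48, against 0.02 for all these genes. All 5 loci passed this filter on low values in each library alone.

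**Figure D1:**
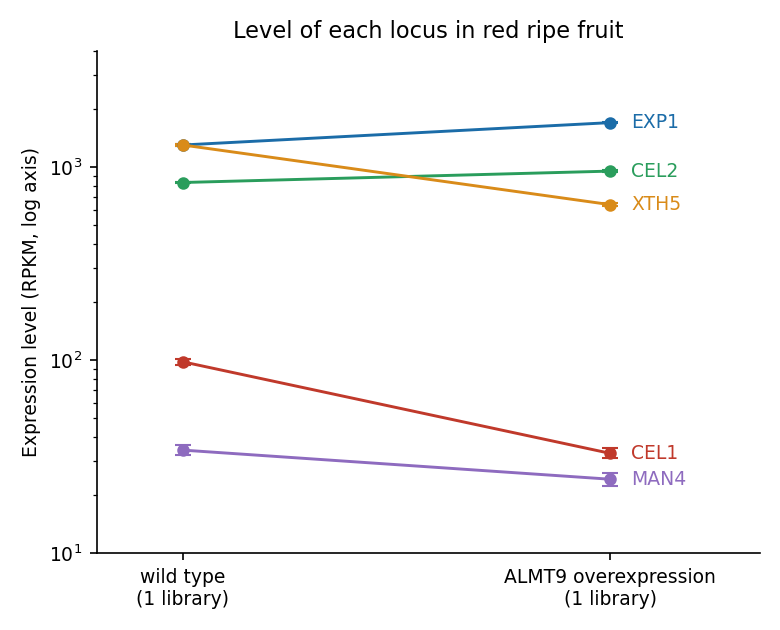
RPKM (log axis) of the 5 loci in wild-type fruit library and the ALMT9 overexpression library, 1 library each; bars are exact 95% Poisson intervals of the reads, mostly smaller than the points. XTH5 and EXP1 start at the same level, 1301 and 1299.7 RPKM, and end at 638 and 1698 RPKM, while CEL1 is at 98.03 and 32.9 RPKM.

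EXP1 had the highest level of the 5 in the overexpression library. It stood at 1299.7 RPKM in wild-type fruit and at 1698 RPKM in overexpression fruit, from 37810 and 48171 recovered reads. The ratio of overexpression to wild type was 1.31 (counting interval 1.29 to 1.32) and the log2 ratio was 0.39. EXP1 was the gene with rank 37 by level in wild-type fruit and rank 24 in overexpression fruit, of all identifiers. Its log2 ratio lay at percentile 75.3 of the genes with a mean of at least 1 RPKM. Of the 36 genes outside the 5 loci that lay within 1.5-fold of its mean level, 8 had a log2 ratio as high or higher, so a difference of this size was common among the most abundant transcripts.

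The endoglucanase pair went opposite ways. CEL2, which is known to accumulate in ripening tomato fruit, was at 831 RPKM in wild-type fruit and 952 RPKM in overexpression fruit, from 28410 and 31749 reads. Its ratio was 1.15 (counting interval 1.13 to 1.16) and its log2 ratio was 0.20, with 36 of 100 genes of similar mean level as high or higher. CEL1, the endoglucanase known from flower abscission, was at 98.03 RPKM in wild-type fruit and 32.9 RPKM in overexpression fruit, from 3471 and 1136 reads. Its level was thus 66.4% lower, a ratio of 0.336 (interval 0.314 to 0.359), and the log2 ratio was -1.55. This was rank 218 from the lowest of 17287 genes. Among the 2059 other genes within 1.5-fold of its mean level, 35 (1.70%) were as low or lower.

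Because CEL2 was far more abundant, the pair as a sum hardly differed. CEL1 and CEL2 summed to 929 RPKM in wild-type fruit and 985 RPKM in overexpression fruit. CEL2 was 8.48 times as abundant as CEL1 in wild-type fruit and 28.9 times in overexpression fruit. The ratio between these values was 3.41, with an approximate counting interval of 3.19 to 3.66 from the log of the reads.

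MAN4, which cuts the mannans of the wall and is known as the endo-beta-mannanase of ripening fruit, was the least abundant of the 5 in both libraries. It stood at 34.2 RPKM in wild-type fruit and 24.2 RPKM in overexpression fruit, from 975 and 672 reads. The ratio was 0.707 (counting interval 0.640 to 0.780) and the log2 ratio was -0.48, inside 2-fold. Its place was percentile 16.6 of all genes by log2 ratio, and 547 of 3420 genes of similar mean level (16.0%) were as low or lower. The difference was beyond counting error but of a size found in many genes of this level.

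XTH5, the locus for the enzyme that cuts and rejoins xyloglucan, held the largest difference in RPKM of the 5. It was at 1301 RPKM in wild-type fruit and at 638 RPKM in overexpression fruit, from 35067 and 16791 reads. The level was 50.9% lower, with a ratio of 0.491 and a counting interval of 0.482 to 0.50, which reaches the 2-fold line. The log2 ratio was -1.03, only just past the size required. XTH5 had rank 36 by level in wild-type fruit and rank 128 in overexpression fruit. Of 88 genes of similar mean level, 6 (6.82%) were as low or lower.

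**Figure D2:**
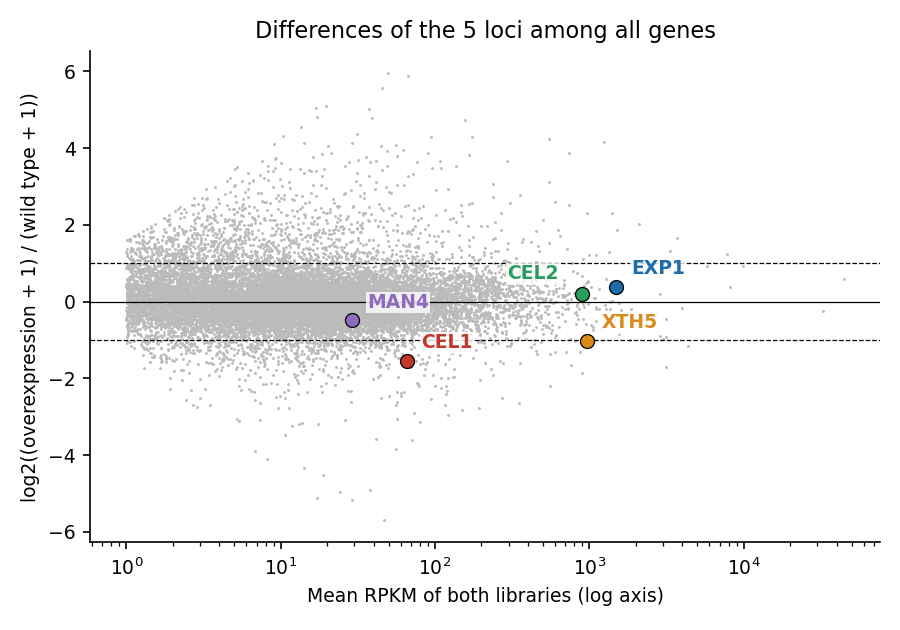
Log2 ratio of overexpression to wild type (RPKM + 1) against mean RPKM (log axis) for the 17287 genes with a mean of at least 1 RPKM, as grey points, with the 5 loci in colour; dashed lines mark 2-fold. CEL1 lies well below the lower line at -1.55, XTH5 lies on it at -1.03, and MAN4, CEL2 and EXP1 lie within the bulk of genes.

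XTH5 went from a shared first place to the third in the order of the 5 loci by level, and the order of the other 4 was the same in both libraries. In the wild type XTH5 and EXP1 shared the first place, with EXP1 at 0.999 times the level of XTH5 (approximate counting interval 0.985 to 1.01), followed by CEL2, CEL1 and MAN4. In the overexpression library the order was EXP1, CEL2, XTH5, CEL1 and MAN4. There EXP1 was 2.66 times as abundant as XTH5 (interval 2.61 to 2.71) and CEL2 was 1.49 times as abundant as XTH5 (1.46 to 1.52). CEL1 and MAN4 came closer, from 2.87 times (2.67 to 3.08) to 1.36 times (1.24 to 1.498). Apart from EXP1 and XTH5 in wild-type fruit, these neighbours in the order differed by more than counting error in each library, and their spread between fruits was not measured.

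As a sum the 5 loci stood at 3564 RPKM in wild-type fruit and 3345 RPKM in overexpression fruit, a ratio of 0.939. They made up 0.430% of all RPKM in wild-type fruit and 0.379% in overexpression fruit. EXP1 made up 36.5% of the sum of the 5 loci in wild-type fruit and 50.7% in overexpression fruit. XTH5 made up 36.5% and 19.1%, CEL2 23.3% and 28.5%, CEL1 2.75% and 0.983%, and MAN4 0.959% and 0.722%. The balance within the sum thus differed far more between the libraries than the sum did. Without the expansin, which is no enzyme of chain cutting, the other 4 loci summed to 2264 RPKM and 1648 RPKM.

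Further expansin and endoglucanase loci included some that were much higher in the overexpression library, whereas all 7 xyloglucan transglucosylase loci with a mean of at least 1 RPKM were lower. The lists were entered by locus identifier, also with earlier results of these data known, and they need not hold whole families. No table used here pairs the identifiers with names, so their loci are given as list entries without gene names. Shares over all genes are given beside the counts as description only. Of the 13 further expansin loci, 9 had a mean of at least 1 RPKM, of which 3 were called higher and none lower, beside 8.09% and 4.30% of all genes. The median log2 ratio of the 9 was 0.11. Solyc02g088100.2 stood at 11.6 RPKM in wild-type fruit and 122 RPKM in overexpression fruit, a ratio of 10.5 (interval 9.25 to 11.9). Solyc05g007830.2 stood at 0.253 and 34.2 RPKM, and Solyc06g005560.2 at 3.14 and 28.2 RPKM. All 3 were lower than EXP1 by more than 10-fold in both libraries. Of the 3, Solyc05g007830.2 passed the filter only through the overexpression library, where it was high, and it counts in both the 9 and the 3.

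Of the 5 further endoglucanase loci, 2 had a mean of at least 1 RPKM. Solyc08g082250.2 was at 15.9 RPKM in wild-type fruit and 330 RPKM in overexpression fruit, a ratio of 20.7 (interval 19.3 to 22.2). This placed it below CEL1 in wild-type fruit and above it in the overexpression library. The other, Solyc01g102580.2, was lower in the overexpression library, at 51.0 and 31.8 RPKM, within 2-fold.

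Of the 13 further xyloglucan transglucosylase loci, all 7 that had a mean of at least 1 RPKM were lower in the overexpression library, like XTH5. Their median log2 ratio was -0.75, between -2.78 and -0.44, and 2 of the 7 were called lower. Of all 17287 genes, 4.30% were called lower and 48.8% had a log2 ratio below 0. Solyc12g011030.1 stood at 20.5 RPKM in wild-type fruit and 2.12 RPKM in overexpression fruit, a ratio of 0.103 (interval 0.0705 to 0.147). Solyc07g056000.2 stood at 25.1 and 9.32 RPKM, a ratio of 0.371 (interval 0.313 to 0.437). None of the 7 exceeded 31.9 RPKM in wild-type fruit, far below XTH5. Of the other 6 loci, all under the filter, 3 were above 0 and 3 below. Solyc01g099630.2 and Solyc11g066270.1, named here after their values were seen, were higher at very low levels. Solyc01g099630.2 was at 0.193 and 1.26 RPKM (ratio 6.56, interval 2.54 to 21.6). Solyc11g066270.1 was at 0.0569 and 0.583 RPKM (ratio 10.3, interval 1.46 to 445). The intervals take no account of this picking. How reads that match several of these related genes were counted is not given in the sources used here.

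The pectin loci of softening fruit, entered for comparison, also lay on both sides of 0. Of 8 loci, 7 had a mean of at least 1 RPKM, with 2 called higher and 1 called lower, beside 8.09% and 4.30% of all genes, and a median log2 ratio of 0.20. The locus called lower, Solyc07g064180.2, was at 77.2 RPKM in wild-type fruit and 22.6 RPKM in overexpression fruit, a ratio of 0.293 that lies beside the 0.336 of CEL1. Those called higher were weak, Solyc03g123630.2 at 2.14 and 7.21 RPKM and Solyc08g060970.2 at 0.46 and 2.32 RPKM. Of these, Solyc08g060970.2 passed the filter only through the overexpression library. The most abundant, Solyc03g111690.2, was at 2676 and 3069 RPKM, a ratio of 1.15 like that of CEL2. The list shares loci with the ripe fruit markers above, Solyc03g111690.2 among them, so these lists are not separate comparisons.

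**Figure D3:**
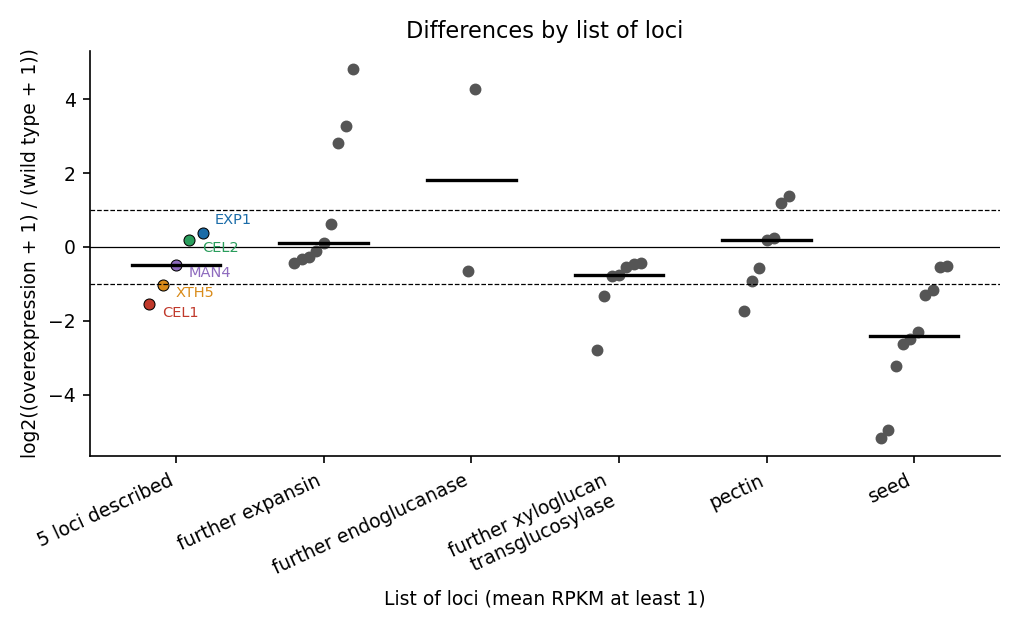
Log2 ratio of overexpression to wild type (RPKM + 1) of each locus with a mean of at least 1 RPKM, by list; black bars are medians and dashed lines mark 2-fold. All 7 further xyloglucan transglucosylase points and all 10 seed points lie below 0, while the expansin, endoglucanase and pectin points lie on both sides.

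Of the 50 identifiers in the table that lie up to 5 places before or after one of the loci, 24 had a mean of at least 1 RPKM. Of these 24, none was called higher and 1 was called lower, beside 8.09% and 4.30% of all genes. A log2 ratio below 0 was found for 17 of the 24, beside 48.8% of all genes. The 5 of these around CEL1 lay between -0.25 and 0.36 in log2 ratio, against the -1.55 of CEL1 itself. Around EXP1, CEL1 and MAN4 alike, 4 of the 5 were below 0, with medians of -0.16, -0.19 and -0.38, although EXP1 itself was above 0. Around CEL2 2 of 4 were below 0 and around XTH5 3 of 5, with medians of -0.02 and -0.008. The identifier called lower was Solyc01g081050.2, directly before XTH5, at 9.88 RPKM in wild-type fruit and 4.17 RPKM in overexpression fruit. Its log2 ratio of -1.07 was next to the -1.03 of XTH5, at a far lower level. Whether reads from XTH5 run into this gene model was not tested, and the strand setting of the counting is not given in the sources used here.

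**Figure D4:**
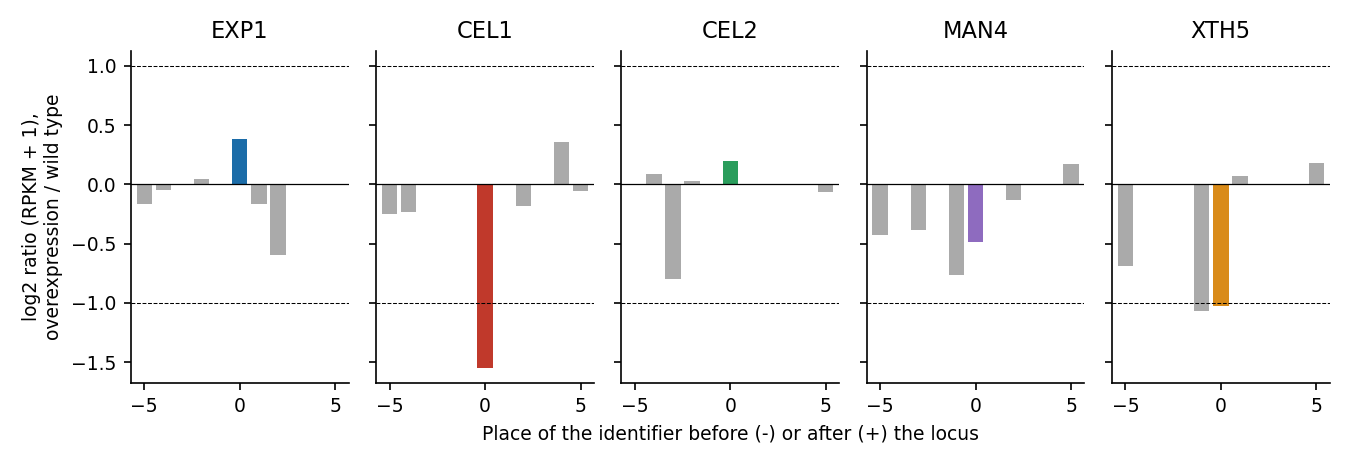
Log2 ratio of overexpression to wild type (RPKM + 1) of each of the 5 loci (coloured, at 0) and of the identifiers up to 5 places before or after it that had a mean of at least 1 RPKM (grey); dashed lines mark 2-fold. CEL1 stands alone at -1.55, whereas the identifier directly before XTH5 is as low as XTH5.

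The genes closest to each locus in both levels were found as the nearest in log2(RPKM + 1) over these 2 libraries, which is a small basis for likeness. For CEL1 the nearest was Solyc12g007060.1, with 96.2 RPKM in wild-type fruit and 33.6 RPKM in overexpression fruit, followed by Solyc06g076670.2 with 102 and 30.6 RPKM. For XTH5 it was Solyc01g088400.2, with 1250 and 585 RPKM, followed by Solyc08g005770.2 with 1359 and 721 RPKM. The nearest genes of XTH5 lay farther from it than those of CEL1 did from CEL1. For EXP1 it was Solyc06g076140.2, with 1217 and 1553 RPKM, and then Solyc05g010420.1, with 1396 and 1401 RPKM. For CEL2 these were Solyc06g073300.1, at 806 and 936 RPKM, and Solyc12g008590.1, at 827 and 989 RPKM. For MAN4 they were Solyc05g054940.2, at 34.2 and 24.5 RPKM, and Solyc08g082540.2, at 34.8 and 24.4 RPKM. Within a distance of 0.25 there were 279 genes for MAN4, 8 for CEL2, 7 for CEL1, 3 for XTH5 and 1 for EXP1.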

How the data were processed

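The authors deposited 1 table of RPKM values for 2 libraries of red ripe tomato fruit. TopHat, a spliced read aligner, is named without a version, per the submitters' processing notes. The sources used here do not give the counting tool, genome build, annotation release or strand setting. Columns were assigned by sample title and groups by genotype label.

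RPKM is reads divided by length and library total, so totals were sought at which low values become whole reads; 76.8% of 400 trial genes then had a whole length (37.8% at 2 times these totals). Allowing for rounding of the last printed digit, a length of at least 60 bp that turned each value into whole reads was found for 24426 of 24429 genes above 0, and the shortest was used. Read numbers are thus the smallest possible, and intervals can be too wide on this account. Copies made by PCR act the other way. The 5 loci had recovered lengths of 1366 to 1794 bp. Recovery was tested on simulated data.

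Ratios have Clopper-Pearson 95% intervals; ratios between loci have approximate ones. Named genes are the 5 loci, the 2 nearest to each, neighbours and list loci at least 2-fold apart, and the ALMT9 locus; ripening markers and low loci named singly were picked after their values were seen; other list loci named are those with the highest level or the only one left. The 5 loci and the lists were chosen with earlier results of these data known. None of 41476 RefSeq genes matched an identifier. Alternatives covered pseudocount, filter, scaling and size of difference. Python 3.11.15, numpy 2.4.6, scipy 1.17.1 and pandas 2.3.3 were used.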

Additional observations from a re-analysis of the deposited data

How the results depend on the processing

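Every locus of the 5 kept its direction in each of 10 alternatives (pseudocounts of 0.1, 0.5, 5 and, added after seeing the data, none; 2 filters; 4 scalings). The pseudocounts and filters could not have changed a direction. The log2 factors of the 4 scalings, from -0.0893 to -0.0145, were smaller in size than the log2 ratio of each of the 5 loci. The kept directions therefore say little. Log2 ratios ranged from 0.30 to 0.39 for EXP1, -1.63 to -1.44 for CEL1, 0.11 to 0.20 for CEL2, -0.57 to -0.43 for MAN4 and -1.11 to -1.02 for XTH5. CEL1 and XTH5 were the 2 loci called lower in each of these settings and at 1.5-fold, and at 4-fold 0 were. The filters and the 1.5-fold size could not have undone these calls, and all 4 scalings lowered the log2 ratios. Only the pseudocount of 5 brought XTH5 closer to the 2-fold line, at -1.02. None of the 5 was called higher in any setting. Over all genes, 1398 higher and 744 lower became 667 and 342 with a pseudocount of 5. They became 2819 and 2163 at 1.5-fold and 341 and 94 at 4-fold. With a mean of at least 5 RPKM, 12855 genes were left, of which 860 were higher and 554 lower. These were 6.69% and 4.31%, beside 8.09% and 4.30% in the main setting. No paired analysis was possible because there is only 1 library a genotype, which also means that none could be left out. Depth limits MAN4 most, with 975 and 672 reads. What limits all 5 loci is the lack of replicates.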

Other observations

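Sums by family cover only the members and the further listed loci. The 14 expansin loci stood at 1359 RPKM in wild-type fruit and 1920 RPKM in overexpression fruit. EXP1 made up 95.7% of that sum in wild-type fruit and 88.4% in overexpression fruit. The 7 endoglucanase loci summed to 997 and 1348 RPKM, of which CEL1 and CEL2 made up 93.2% and 73.1%. Most of the difference in this sum came from Solyc08g082250.2, which went from 15.9 to 330 RPKM. The 14 xyloglucan transglucosylase loci summed to 1399 and 682 RPKM, with XTH5 at 93.0% and 93.6%. These sums are descriptions of 1 library a genotype, and reads shared between related loci could not be separated.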
